A study of Mus musculus with 80 samples.

Results

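The immediate early genes examined here are Fos, Egr1, Jun, Junb, Ier2, Atf3, Myc, Fosl1, Ier3 and Dusp6, which were taken by gene name from each of the 6 expression tables, 10 of the 22556 genes that the tables list. Chromatin-associated RNA-seq (ChrRNA-seq), which sequences the largely nascent RNA retained on chromatin, was performed in 80 libraries from mouse embryonic stem (mES) cells on a Cast x 129S background in which doxycycline (Dox) switches on the Xist RNA that silences an X chromosome. METTL3, the catalytic subunit of the m6A RNA methyltransferase, was fused to an FKBP12 degron in 4 clones (G4, H1, C3 and H5), YTHDC1, the nuclear reader of m6A, in clones Y9F and Y12H, ZCCHC8, the scaffold of the NEXT adaptor of the nuclear RNA exosome, in clones Z4F and Z12H, and ZFC3H1, which links the exosome to polyadenylated RNA in the PAXT connection, in clones 8H and 11A. The degron was at the N terminus of METTL3 in G4 and H1 and at the C terminus in C3 and H5. YTHDC1, ZCCHC8 and ZFC3H1 were tagged at the C terminus. The paper reports reduced METTL3 protein with the N-terminal tag. Each clone was sampled untreated, after 24 h of Dox at 1 µg/mL, after 26 h of the degrader dTAG, and after both, where dTAG preceded the 24 h of Dox by 2 h and stayed on. For dTAG alone the 26 h follows the sample titles, whereas the treatment label of those samples gives 2 h.

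YTHDC1 clones were sampled in 2 experiments, of which experiment 1 shares a table with ZCCHC8 and experiment 2 has a table of its own. The remaining lines, all derived from METTL3 degron clone H5, also carried a GFP-METTL3 transgene at the Rosa26 locus under a constitutive promoter, either wild type (WT) or the catalytically dead D395A mutant. They comprised the XX clones WT_P2B3 and D395A_1F and the XiO clones WT_1A and D395A_9F, each a single clone sampled in 2 experiments. The 4 treatments of an experiment were wells taken from a common batch of cells, so the experiment pairs the libraries. By the methods, the XiO clones had lost the 129S X chromosome. TetOn drove Xist from the Cast allele in the METTL3, transgene and ZFC3H1 lines and from the 129S allele in the YTHDC1 and ZCCHC8 lines. By the paper, Xist in the YTHDC1 and ZCCHC8 clones also carried an array of Bgl stem-loops, whereas the other lines had Xist without it. The allele and the array therefore cannot be told apart here. All cells were grown on mitomycin-inactivated mouse fibroblasts and were trypsinised before lysis, so the libraries may hold some feeder RNA and any RNA made during handling. Dox was given together with Xist induction in every line, and the agent and Xist cannot be told apart here. A degron removes protein, so RNA levels of the tagged genes do not check the depletion. Nothing in the labels ties the clones to separate derivations beyond their names, but the paper describes the METTL3, YTHDC1 and ZCCHC8 clones as independent. In the degron lines, where the fit was blocked by clone, the p-values measure how unevenly these clones responded. They do not measure the differences in level between clones. Both pairs of a clone enter as separate observations, and YTHDC1 experiment 1 and ZCCHC8 share an estimate of spread. In the transgene lines, fitted without a block, the p-values measure the spread between these experiments.

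Immediate early genes are transcribed within minutes of a growth factor, serum or stress signal without new protein synthesis, and their short transcripts are quickly degraded. FOS, FOSL1, JUN and JUNB pair through leucine zippers to form the transcription factor AP-1, and ATF3 is a related zipper protein induced by stress. EGR1 is a zinc-finger transcription factor and MYC a growth-promoting one, IER2 and IER3 are small proteins of the same early response, and DUSP6 is a phosphatase that inactivates ERK and so limits the signal that induced it. In mES cells FGF4 signalling through ERK keeps part of this programme active. Because the genes are short, transcription that ends early within long genes can leave them untouched, and because their RNA is labile, their chromatin-associated level follows synthesis and nuclear decay closely.

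By RefSeq on build GRCm38.p6, Jun lies at chr4:95049036-95052222 on the minus strand, Junb at chr8:84976909-84978748 (minus) and Ier2 at chr8:84661331-84662852 (minus), and these 3 genes have no introns. Fos lies at chr12:85473890-85477274 (plus), Myc at chr15:61985341-61990361 (plus), Ier3 at chr17:35821713-35822911 (plus) and Dusp6 at chr10:99263231-99267489 (plus). Atf3, at chr1:191170296-191183333 (minus), is the longest, with 84.8% of its span intronic, and Fosl1, at chr19:5447698-5455938 (plus), overlaps Ccdc85b on the opposite strand. Reads were counted by strand over the whole span of a gene, and no member overlaps another gene on its own strand. Counts therefore mix exon and intron reads in the 7 members with introns, of which Atf3, Fosl1 and Myc have the largest intronic share of their span. In Jun, Junb and Ier2 they hold exon reads.

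The promoters of Jun, Fos, Junb and Atf3, the zipper factors for which sequence was at hand, are shown because these members were called together in several comparisons below. RefSeq promoter sequence on build GRCm38.p6 was at hand for 6 of the 10 members. Each line gives the 250 bases before the annotated start of transcription, 5′ to 3′ on the strand of the gene, with the motif matches in capitals (Jun chr4:95052223-95052472, minus; Atf3 chr1:191183334-191183583, minus; Fos chr12:85473640-85473889, plus; Junb chr8:84978749-84978998, minus).
Jun: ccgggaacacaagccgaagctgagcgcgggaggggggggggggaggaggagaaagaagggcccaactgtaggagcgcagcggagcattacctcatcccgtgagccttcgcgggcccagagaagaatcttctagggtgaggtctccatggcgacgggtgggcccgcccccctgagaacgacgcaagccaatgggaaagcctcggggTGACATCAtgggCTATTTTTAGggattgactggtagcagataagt
Atf3: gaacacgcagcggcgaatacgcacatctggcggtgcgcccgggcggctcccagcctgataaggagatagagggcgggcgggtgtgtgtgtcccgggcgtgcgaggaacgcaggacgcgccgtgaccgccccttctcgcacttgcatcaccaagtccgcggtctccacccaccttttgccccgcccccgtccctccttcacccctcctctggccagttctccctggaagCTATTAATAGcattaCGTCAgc
Fos: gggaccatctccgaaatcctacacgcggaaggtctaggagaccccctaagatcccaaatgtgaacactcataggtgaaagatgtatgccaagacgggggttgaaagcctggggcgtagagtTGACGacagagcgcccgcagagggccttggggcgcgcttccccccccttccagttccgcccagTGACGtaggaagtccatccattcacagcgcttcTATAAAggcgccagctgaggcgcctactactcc
Junb: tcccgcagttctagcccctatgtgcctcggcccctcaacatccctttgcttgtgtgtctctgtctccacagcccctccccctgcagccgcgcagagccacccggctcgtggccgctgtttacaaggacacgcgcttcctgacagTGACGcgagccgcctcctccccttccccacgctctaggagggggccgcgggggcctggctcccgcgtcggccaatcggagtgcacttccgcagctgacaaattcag

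Motif letters were chosen after these sequences were seen. The 8-base AP-1 and CRE form TGANNTCA, searched on both strands, began 45 bases before the start of Jun and is held by 11.9% of 32851 promoters of the same length. The shorter CRE core TGACG, either strand, which the 8-base form can overlap, was found in Atf3, Fos and Junb and in 17.8% of all promoters. A match to the MEF2 box was present in Jun and Atf3, against 2.92% of promoters, and TATAAA on the sense strand in Fos, against 7.59%. The 7-base AP-1 site TGANTCA (6.75% of promoters), the EGR motif GCGNGGGCG (4.7%) and the CArG box bound by SRF (1.47%) were not found in these windows for any of the 6 members, which also include Ier3 and Dusp6.

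Libraries held 8583487 to 34392078 assigned reads. The values below are the deposited CPM (counts scaled to a common library total), rescaled within each table by the median ratio over autosomal genes and called scaled CPM. A change is the difference of log2(scaled CPM + 1), which understates changes of weakly expressed genes, given ± its standard error from limma with Benjamini-Hochberg adjustment over all genes tested in that table, and a gene was called at an adjusted p below 0.05. The dTAG effect averages dTAG against untreated and dTAG plus Dox against Dox, and the Dox effect averages Dox against untreated and dTAG plus Dox against dTAG. Genes with a mean of at least 1 scaled CPM were tested, which held for 8 members in the METTL3 table (not Fosl1 or Ier3), all 10 in YTHDC1 experiment 2 and 9 elsewhere (not Ier3). Being bulk libraries, fewer expressing cells and less RNA per cell cannot be told apart. Summed over 16 markers, fibroblast RNA ranged from 8.67 to 44.2 scaled CPM, with WT_1A libraries at 34.2 to 44.2 and all others at or below 22.1, while Lum had a median of 0 and Postn of 0.0371. Embryonic stem cell markers summed to 980 to 2480 scaled CPM. Endoderm and mesendoderm markers, of which Lama1 had the highest median (203) and Foxa2, Sox17 and Mixl1 had medians of 0.0635, 0.117 and 0.211, are given beside the results they moved with.

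Per kilobase of gene span, the untreated levels were low and overlapped widely. Over the 20 untreated libraries Ier2 was highest, with a median of 4.14 scaled CPM per kb (range 1.15 to 11.4), followed by Egr1 at 3.99, Dusp6 at 2.33, Junb at 2.31, Jun at 1.67, Myc at 1.33 and Fos at 1.03. Atf3 (0.577), Ier3 (0.535) and Fosl1 (0.141) were the weakest. Neighbours in this order had overlapping ranges throughout. Read numbers behind the weak members were small: Ier3 had 1 to 52 reads per library and Fosl1 8 to 135, against 20 to 1016 for Egr1.

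**Figure D1:**
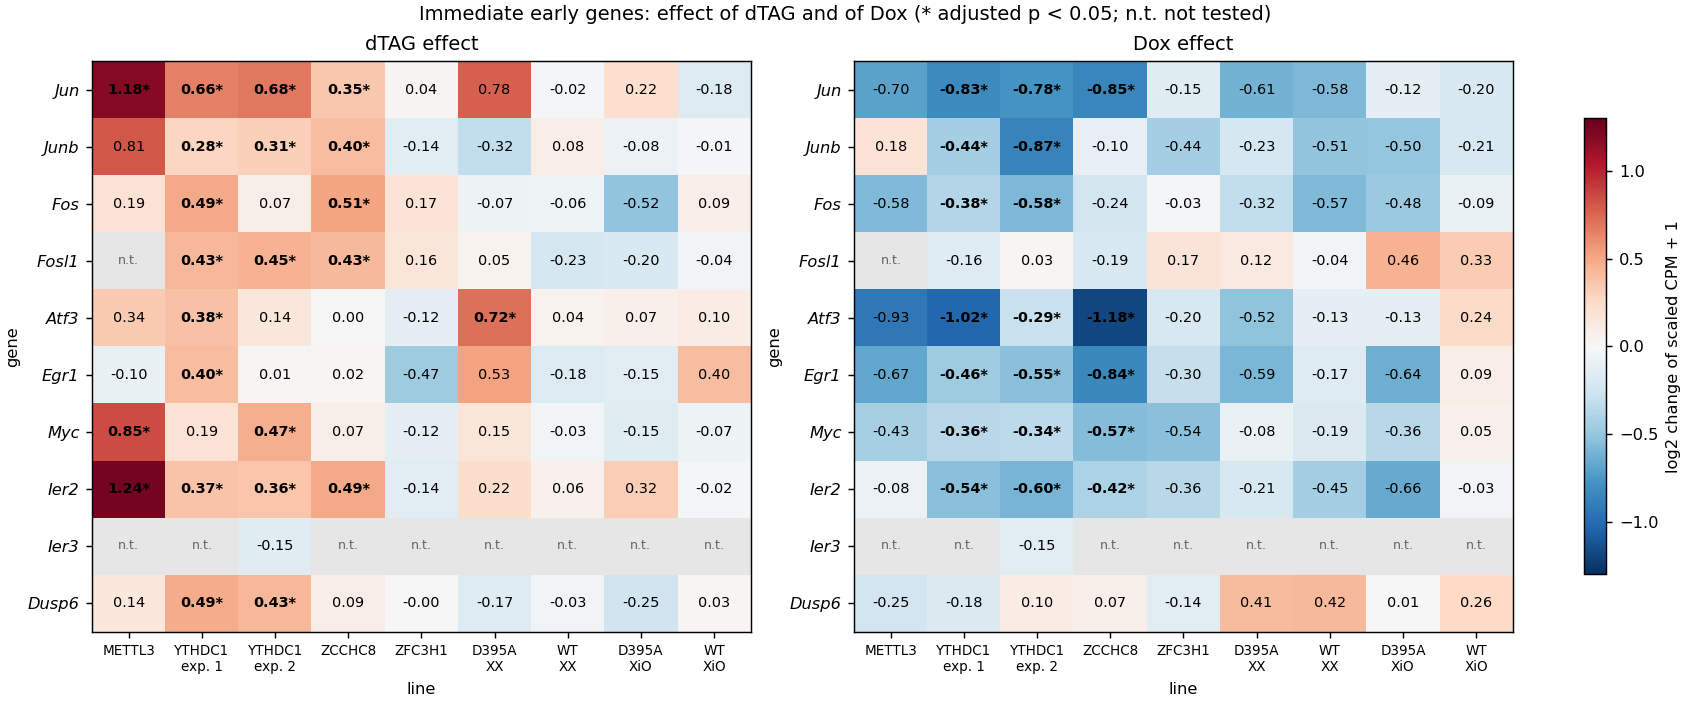
Log2 change of each member (rows) in each line (columns) with dTAG (left) and with Dox (right), coloured on a common scale. An asterisk marks an adjusted p below 0.05 in limma and n.t. a member below the level tested. With dTAG all called cells are positive and lie in the METTL3, YTHDC1, ZCCHC8 and D395A_XX columns, and with Dox all called cells are negative and lie in the YTHDC1 and ZCCHC8 columns. Degron columns were fitted with a clone block and transgene columns without a block. With the experiment as a replicate block, not drawn here, Dox also called members in each transgene line, Dusp6 higher and the others lower. That block also called Dusp6 lower with dTAG in D395A_XiO.

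METTL3 depletion raised the intronless genes Jun and Ier2 and the growth regulator Myc, while the other tested members did not pass the threshold. In clone C3, Jun stood at 3.55 scaled CPM untreated, 14.1 with dTAG, 2.44 with Dox and 13.9 with both. In clone H5 the same series was 6.81, 30.6, 4.36 and 13.2, and in clone H1 it was 7.06, 10.4, 4.37 and 7.88. Clone G4 differed, with 9.09 untreated and 8.91 with dTAG but 2.03 with Dox and 4.86 with both. Jun was thus higher with dTAG in 7 of 8 pairs, and with Dox present the dTAG libraries (4.86 to 13.9) did not overlap those without it (2.03 to 4.37). The change was 1.18 ± 0.23 (n = 4 clones, adjusted p = 0.00168). Averaged within clones, Jun changed by 1.93 and 1.71 in C3 and H5, tagged at the C terminus. In G4 and H1, tagged at the N terminus, it changed by 0.46 and 0.62.

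Ier2 was higher with dTAG in all 8 pairs, by 1.24 ± 0.34 (adjusted p = 0.0128). Its untreated and dTAG values were 1.75 and 4.16 in C3, 5.8 and 13.3 in G4, 1.83 and 10.2 in H1 and 5.91 and 18.1 in H5. With Dox and with both they were 1.22 and 18.6 in C3, 5.95 and 8.62 in G4, 6.91 and 8.68 in H1 and 2.32 and 4.02 in H5, so the size of the difference varied widely between clones. Myc rose by 0.85 ± 0.16 (adjusted p = 0.00126) and was higher in 7 of 8 pairs. Untreated and dTAG values of Myc were 3.85 and 7.21 in C3, 7.81 and 14.3 in G4, 5.93 and 13.7 in H1 and 5.37 and 12.2 in H5. With Dox, Myc went from 2.44 to 9.19 in C3, 4.66 to 9.75 in G4 and 3.06 to 5.25 in H5 on adding dTAG, whereas H1 stood at 7.78 and 7.79. Averaged within clones, Ier2 and Myc overlapped between the tag ends. Ier2 changed by 2.02 and 1.03 in C3 and H5 and by 0.77 and 1.13 in G4 and H1. Myc changed by 1.16 and 0.84 in C3 and H5 and by 0.86 and 0.55 in G4 and H1. The part of the tag end in these changes was not tested.

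The other tested members gave smaller or more scattered values. Junb, the third intronless member, had a change of 0.81 ± 0.45 (adjusted p = 0.161), with clone C3 going from 0.291 to 11.6 under Dox and clone H5 from 1.36 to 1.19. Atf3 gave 0.34, Fos 0.19, Dusp6 0.14 and Egr1 -0.10, with adjusted p from 0.278 to 0.674. Averaged within clones, Atf3 changed by 0.92 and 0.80 in C3 and H5 and by -0.01 and -0.34 in G4 and H1. Fosl1 (0.465 to 1.24 scaled CPM over the 16 libraries) and Ier3 (0.116 to 1.56) were not tested. The 3 members called, of 8 tested, compare with 15.0% of all genes tested that were called higher.

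Short genes as a class moved in the same direction in this line. The median change was 0.58 over the 8 members, -0.02 over all genes and 0.18 over genes spanning at most 10 kb, of which 20.8% were called higher and 5.33% lower. The share of reads in genes of at most 3 kb, members left out, ranged from 0.496% in C3 with Dox to 4.57% in C3 with both, and from 1.22% to 3.37% with dTAG against 0.796% to 2.53% untreated. A single gene, Rmrp, took a large part of the high shares. Its CPM as deposited was 218.3 in C3 with Dox, 20670 in H5 with dTAG and 25410 in C3 with both. The share therefore follows Rmrp as well as short genes as a class. With this share added to the fit, an alternative chosen after the data had been seen, Jun, Ier2 and Myc passed the threshold. On the CPM as deposited the median gene shifted by 0.22 with dTAG, and 80.1% of the called genes were higher against 40.2% after scaling, or 15.3% with scaling to genes of at most 10 kb. Jun, Ier2 and Myc were called higher under each of these scalings. Summed fibroblast markers lay at 8.84 to 13.6 untreated and 12.7 to 19.8 with dTAG. Summed endoderm and mesendoderm markers were lower with dTAG in 8 of 8 pairs, at 249 to 406 untreated and 127 to 295 with dTAG, where 1 of 7 tested was called higher (Eomes, 0.50) and 2 lower (Lama1, -0.82, and T, -0.55). Summed stem cell markers were also lower in 8 of 8 pairs. Gene by gene, however, 5 of the 9 tested had a positive change, with a median of 0.08, and 1 was called higher and 1 lower. The part of these markers in the result was not tested.

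**Figure D2:**
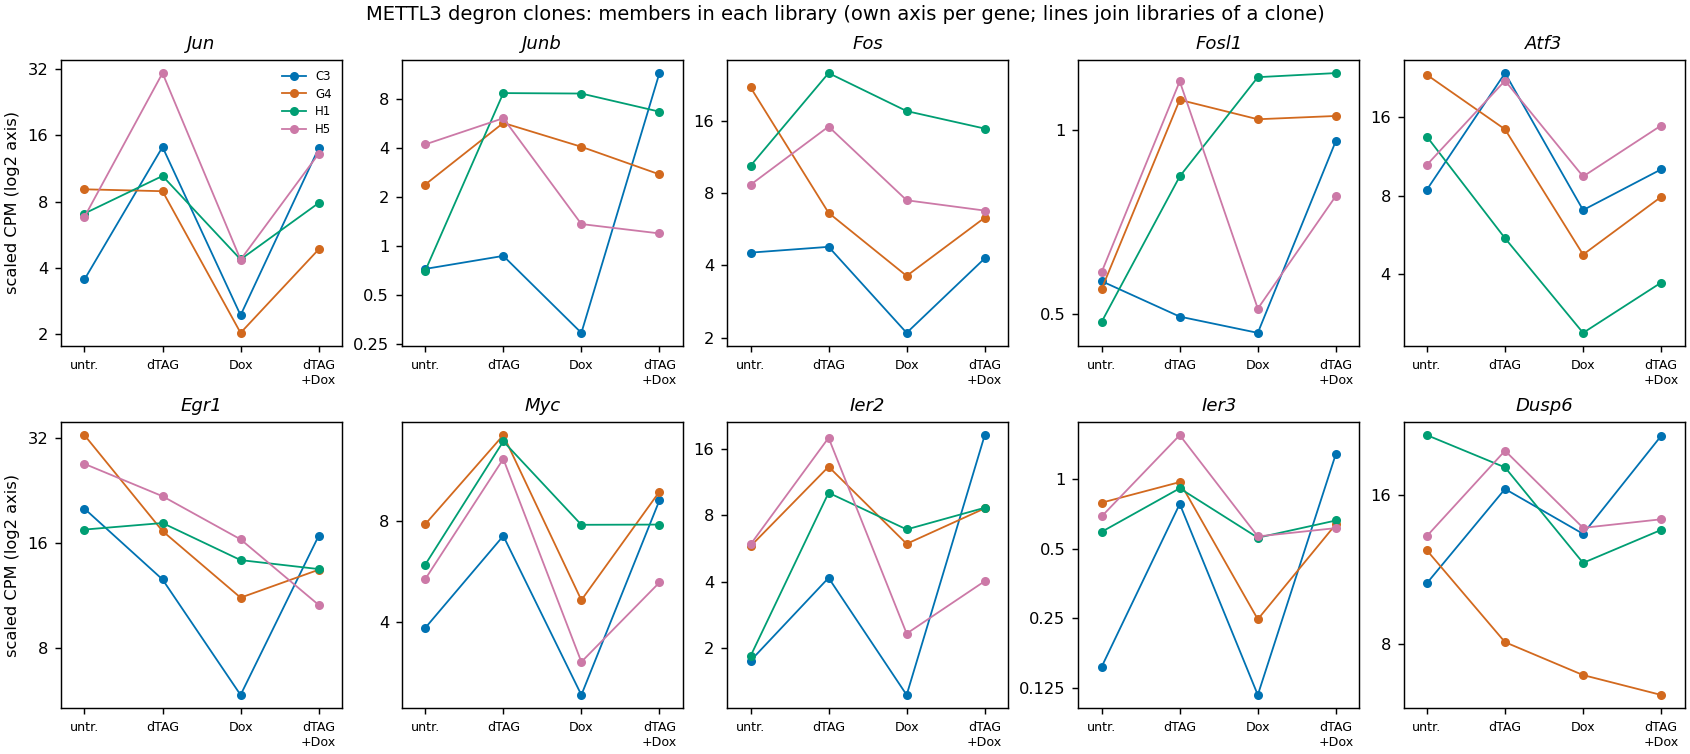
Scaled CPM (log axis) of each member in the 4 METTL3 degron clones, with untreated, dTAG, Dox and dTAG plus Dox on the horizontal axis and a line joining the libraries of a clone. Jun, Ier2 and Myc lie higher with dTAG in nearly every clone, whereas Junb ranges from 0.291 to 11.6 with no common order of the clones.

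Among 42 other immediate early genes, a list made with earlier results of these data known, 13 of the 36 tested (36.1%) were called higher with METTL3 depletion and none lower, against 15.0% and 22.3% of all genes tested. The lowest adjusted p-values belonged to Klf4, a pluripotency factor (1.16 ± 0.11), Mafk, a small MAF zipper protein (0.83 ± 0.16), Zfp36l2, an mRNA decay factor (0.56 ± 0.11), and Rhob, a small GTPase (0.95 ± 0.19). Of 35 tested genes of FGF, ERK and SRF signalling, the pathway upstream of the members, 6 (17.1%) were called higher and 12 (34.3%) lower against the same shares of all genes. They were led by the SRF partner Elk1 (-0.60 ± 0.10), the receptor Fgfr2 (-0.49 ± 0.09), the ERK phosphatase Dusp9 (0.93 ± 0.16) and the SRF coactivator Mkl2 (-0.63 ± 0.12). Elk1 and Dusp9 are X-linked.

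Depletion of YTHDC1 raised most members, by less than METTL3 depletion did for Jun and with closer agreement of the clones. METTL3 and YTHDC1 lines lie in separate tables, and the difference between them was not tested. In experiment 1, Jun went from 9.78 to 16.4 in Y9F and from 8.46 to 14.7 in Y12H on dTAG, and with Dox from 5.61 to 8.62 and from 4.29 to 7.34. In experiment 2 the same pairs were 10.4 and 12.6, 3.78 and 6.29, 3.52 and 7.25, and 1.91 and 4.8. All 8 pairs were higher with dTAG, although the clones of experiment 2 differed in level. The changes were 0.66 ± 0.09 (adjusted p = 4.33e-05) and 0.68 ± 0.10 (adjusted p = 3.84e-05, n = 2 clones each).

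Of the 9 members tested in experiment 1, 8 were called higher, against 16.6% of all genes tested. Beside Jun they were the ERK phosphatase Dusp6 (0.49 ± 0.08), Fos (0.49 ± 0.13), the AP-1 subunit Fosl1 (0.43 ± 0.10), Egr1 (0.40 ± 0.10), Atf3 (0.38 ± 0.11), Ier2 (0.37 ± 0.13) and Junb (0.28 ± 0.10). Myc, at 0.19 ± 0.09, did not pass (adjusted p = 0.139). In experiment 2, 6 of 10 were called higher, against 16.3% of all genes. These were Jun, Myc (0.47 ± 0.09), Fosl1 (0.45 ± 0.11), Dusp6 (0.43 ± 0.09), Ier2 (0.36 ± 0.09) and Junb (0.31 ± 0.11), while Atf3 (0.14), Fos (0.07), Egr1 (0.01) and Ier3 (-0.15) did not pass. Dusp6, Fosl1, Ier2, Jun and Junb were called in both, 5 of 8 (62.5%) and 5 of 6 (83.3%) of the respective calls. The experiments used the same clones but separate libraries.

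Dusp6 had the smallest standard error of the members in experiment 1. In experiment 1 it went from 8.84 to 12.7 in Y9F and from 5.98 to 8.74 in Y12H on dTAG, and with Dox from 7.14 to 10.4 and from 5.47 to 8.14. Fosl1, at 8 reads or more per library, went from 1.31 to 2.43 and from 1.17 to 2.1, and with Dox from 1.02 to 1.49 and from 1.32 to 1.89. Every one of these pairs was higher with dTAG. Egr1 was less even, going from 25.5 to 34.4 in Y9F and from 18.6 to 40.2 in Y12H without Dox, but standing at 19.4 and 19.2, and at 20.6 and 22.6, with Dox.

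Short genes did not rise as a class on YTHDC1 depletion. The members' median change was 0.40 in experiment 1 and 0.33 in experiment 2, against -0.02 and -0.03 over genes of at most 10 kb, of which 11.7% and 10.9% were called higher. Summed fibroblast markers were at 12.1 to 12.4 untreated and 10.1 to 11.9 with dTAG in experiment 1, and 19.8 to 22.1 and 15.9 to 16.8 in experiment 2, lower with dTAG in both. Stem cell markers were also lower, with 0 of 9 called higher and 2 lower in experiment 1 and 0 higher and 4 lower in experiment 2 (Tfcp2l1, Nanog, Dppa5a and Utf1), and summed 2154 to 2185 untreated and 1835 to 2122 with dTAG in experiment 1 and 1855 to 2084 and 1667 to 1915 in experiment 2. Summed endoderm and mesendoderm markers were lower in 4 of 4 pairs of each, at 181 to 197 untreated and 131 to 157 with dTAG and at 187 to 204 and 142 to 150, with Lama1 at -0.41 and -0.37. Of 6 tested in experiment 1, 1 was called higher and 2 lower, and of 5 in experiment 2, 0 higher and 1 lower. The part of these markers in the result was not tested. Without the clone block 4 members were called in experiment 1 and 0 in experiment 2 (limma; 6 by edgeR with the block), and experiment 1 gave 4 calls without Y9F and 2 without Y12H. Of the other immediate early genes 14 of 37 (37.8%) were called higher and 3 (8.11%) lower in experiment 1, and 12 of 36 (33.3%) higher and 3 (8.33%) lower in experiment 2. Over all genes tested the shares higher and lower were 16.6% and 16.9% in experiment 1 and 16.3% and 15.7% in experiment 2. Both were led by the matricellular gene Ctgf (0.92 ± 0.09 and 1.10 ± 0.09), with its relative Cyr61 (0.64 and 0.59) and the kinase Plk2 (0.49 and 0.46) also among the lowest adjusted p-values. Within the FGF, ERK and SRF list, 6 (17.1%) were higher and 1 (2.86%) lower in experiment 1 and 5 (14.3%) higher and 1 (2.86%) lower in experiment 2, so the shares called higher were near those of all genes. The ETS factors Etv4 (0.35 and 0.57) and Etv5 (0.16 and 0.19) and the ERK pathway inhibitors Spred1 (0.24 and 0.27) and Spry4 (0.35 and 0.27) had the lowest adjusted p-values in both.

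ZCCHC8 depletion raised the AP-1 members and Ier2 but not Egr1, Atf3, Myc or Dusp6 past the threshold. Fos, which went from 5.16 to 7.45 in Z4F and from 3.54 to 8.89 in Z12H on dTAG without Dox, rose by 0.51 ± 0.13 (adjusted p = 0.0024, n = 2 clones). With Dox, Fos went from 3.8 to 5.8 in Z4F and stood at 5.12 and 5 in Z12H. Jun went from 7.52 to 9.16 and from 6.95 to 11.7 without Dox and from 3.06 to 4.55 and from 5.02 to 5.06 with it, a change of 0.35 ± 0.09 (adjusted p = 0.00386). The difference was thus nearly absent in Z12H with Dox for both genes. Ier2 (0.49 ± 0.13), Fosl1 (0.43 ± 0.10) and Junb (0.40 ± 0.10) made up the 5 members called of 9 tested, and 24.0% of all genes tested were called higher. The values for Dusp6 (0.09), Myc (0.07), Egr1 (0.02) and Atf3 (0.00) were small. That of Egr1 averages a rise without Dox and a fall with Dox, given below.

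In the same line 28.8% of genes of at most 10 kb were called higher, and the median change was 0.35 over the members, -0.06 over all genes and 0.03 over the short genes. Of the other immediate early genes 16 of 37 (43.2%) were called higher and 5 (13.5%) lower, against 24.0% and 35.6% of all genes, led by Ctgf (0.85 ± 0.09), the HLH protein Id1 (0.80 ± 0.10), Gadd45g (0.79 ± 0.10) and Cyr61 (0.61 ± 0.08). The FGF, ERK and SRF list had 5 of 35 (14.3%) higher and 16 (45.7%) lower beside those same shares of all genes, led by Creb1 (-0.46 ± 0.05), Elk1 (-0.48 ± 0.05), the kinase Rps6ka3 (-0.39 ± 0.05) and the RAS exchange factor Sos1 (-0.35 ± 0.04), of which Elk1 and Rps6ka3 are X-linked. Among the endoderm and mesendoderm markers 3 of 6 were called higher with dTAG (Dab2, Eomes and T) and 1 lower (Lama1, -0.77), and among the stem cell markers 1 of 9 higher (Tdgf1) and 3 lower, with Tfcp2l1 at -0.71. Their part in the result was not tested.

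ZCCHC8 and experiment 1 of YTHDC1 share a table, so their dTAG effects were compared directly. Egr1 (-0.38 ± 0.14, adjusted p = 0.0349) and Dusp6 (-0.40 ± 0.11, adjusted p = 0.00877) were lower for ZCCHC8 than for YTHDC1, 2 of 9 members against 27.1% of all genes called lower, so the members' share was no higher than the background. For the other 7 members the difference did not pass, and edgeR called 1 of the 9. Scaling to genes of at most 10 kb gave 4 members, no clone block gave 0, and leaving out a clone gave 1 (Y9F), 0 (Y12H), 1 (Z4F) or 3 (Z12H). For Egr1 the lower average came from the pairs with Dox. Without Dox, dTAG changed Egr1 by 0.47 and 0.92 in Z4F and Z12H and by 0.42 and 1.07 in Y9F and Y12H. With Dox the changes were -0.54 and -0.76, against -0.01 and 0.13. Egr1, which lies at chr18:34861207-34864956 on the plus strand with 1 intron, differed between ZCCHC8 cells with and without Dox. It went from 24 to 33.5 in Z4F and from 20.8 to 40.2 in Z12H on dTAG without Dox, and from 20.6 to 13.9 and from 18.8 to 10.7 with Dox. The interaction of dTAG and Dox was -1.34 ± 0.20 (adjusted p = 0.00319), the single member called of 9, while 0.397% of genes had a lower interaction, and it was not called without Z12H or without the clone block. In the YTHDC1 lines Egr1 gave -0.69 and -0.59 with adjusted p of 0.999 and 1. No member was called for the interaction in any other line by limma or edgeR, where 0.00722% (YTHDC1 experiment 1), 0.0146% (experiment 2) and 0% (METTL3, ZFC3H1 and the transgene lines) of genes were called. At an unadjusted p below 0.05 there was 1 member in experiment 1 and 2 in experiment 2, and none in METTL3, ZFC3H1 or the transgene lines.

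**Figure D3:**
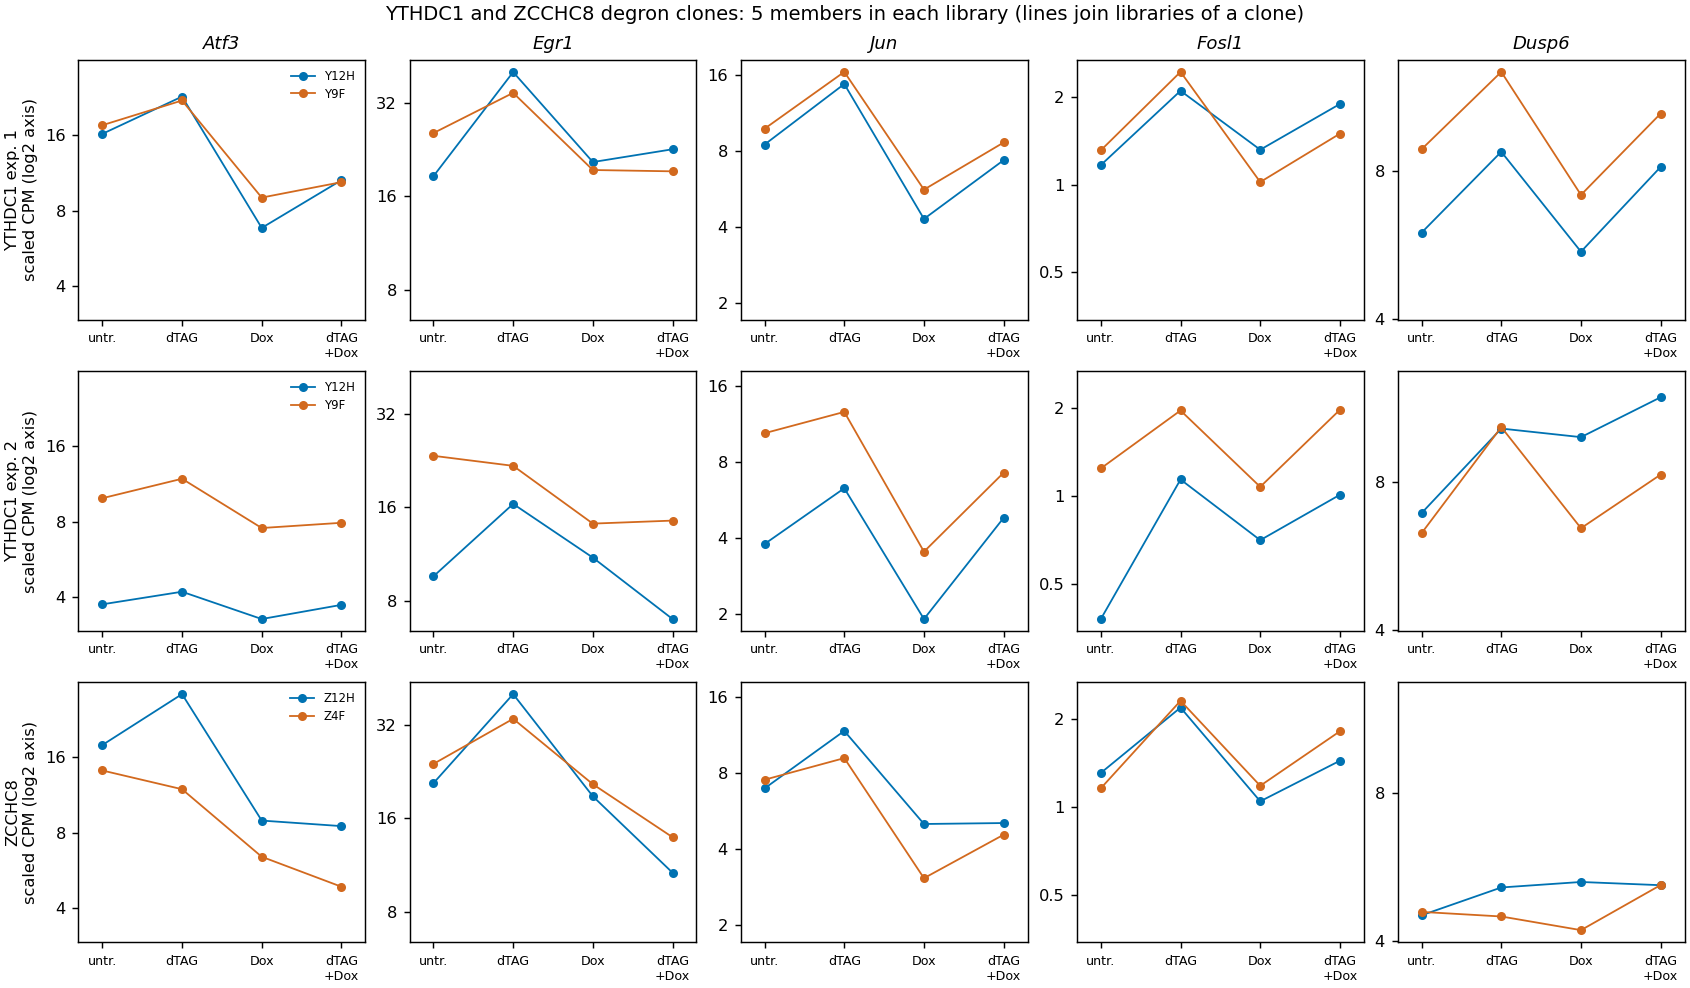
Scaled CPM (log axis) of Atf3, Egr1, Jun, Fosl1 and Dusp6 in YTHDC1 experiment 1, YTHDC1 experiment 2 and ZCCHC8, with a line for each clone over the 4 treatments. Jun is higher with dTAG and lower with Dox in all 3 rows, Dusp6 is higher with dTAG in both YTHDC1 rows, and Egr1 falls below its Dox level with dTAG plus Dox for ZCCHC8.

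No member passed the threshold on depletion of ZFC3H1. Jun went from 5.13 to 4.54 in 8H and from 2.84 to 1.67 in 11A on dTAG, and from 2.64 to 2.82 and from 2.12 to 4.23 with Dox, a change of 0.04 ± 0.21. The changes of the 9 tested members ran from -0.47 (Egr1, adjusted p = 0.251) to 0.17 (Fos). By limma 0 members were called, 0 had an unadjusted p below 0.05 and edgeR called 0, while 9.98% of all genes were called in either direction. The clones differed in level by more than the treatments did for Egr1 (1.04 to 4.52 in 8H, 9.4 to 18.2 in 11A) and Junb (5.9 to 18.9 in 8H, 1.62 to 4.08 in 11A). Etv4 (0.83 ± 0.10) was the gene called higher in the FGF, ERK and SRF list and Creb1 (-0.26 ± 0.06) the gene called lower, and of the other immediate early genes Plk2 was called higher (0.70 ± 0.13) and Klf4 and Zfp36 lower.

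In the transgene lines dTAG removes the endogenous METTL3, leaving either WT or catalytically dead METTL3. With the WT transgene no member and no gene was called in XX or XiO cells (0 of all genes, 0%), 0 members had an unadjusted p below 0.05 in either, and edgeR called 0 members. With the experiment as a replicate block the count was again 0 members and 0% of genes. Jun in WT_P2B3 was at 2.96 and 3.27 without and with dTAG in experiment 1 and at 5.54 and 5.56 in experiment 2, and with Dox at 1.23 and 1.71 and at 4.76 and 3.18. The experiments differed more than the treatments.

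With the D395A transgene in XX cells, Atf3 rose by 0.72 ± 0.21 (adjusted p = 0.0382), 1 of 9 members, while 8.58% of all genes were called higher. Atf3 went from 5.29 to 8.4 and from 3.46 to 6.19 without Dox, and from 3.22 to 3.85 and from 1.88 to 6.62 with Dox. Leaving out either experiment of D395A_1F ended this call. Jun went from 3.56 to 6.73 and from 3.56 to 6.08 without Dox and from 1.63 to 4.74 and from 2.03 to 3.54 with Dox. All 4 pairs were higher, and the change of 0.78 ± 0.29 did not pass (adjusted p = 0.0867). With the experiment as a replicate block, which left 50.4% of all genes called in either direction, Jun (0.78 ± 0.13, adjusted p = 0.000105 in limma) and Atf3 (adjusted p = 0.00242) were both called higher, 2 of 9 members. The D395A effect minus the WT effect was 0.79 ± 0.41 for Jun (adjusted p = 0.362) and 0.68 ± 0.30 for Atf3 (adjusted p = 0.281). By limma 0 of 9 members were called for this difference, 1 at an unadjusted p below 0.05 and 0 by edgeR, against 2.54% of all genes, and without experiment 1 of WT_P2B3 Jun was called. With the replicate block both Jun (adjusted p = 0.00364 in limma) and Atf3 (adjusted p = 0.0451) were called for this difference, 2 of 9 against 30.9% of all genes. In XiO cells the D395A line gave 0 called members (0 at an unadjusted p below 0.05, 0 by edgeR) against 5.22% of all genes, with Jun at 0.22 ± 0.25, and 0 of the members and 0.0372% of genes differed from WT. With the replicate block Dusp6 alone was called for D395A in XiO cells, lower by -0.25 ± 0.08, against 48.4% of all genes, and 0 members differed from WT, against 29.4%. The WT_1A libraries of that comparison are those with the high fibroblast sums, whose part in the result was not tested.

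**Figure D4:**
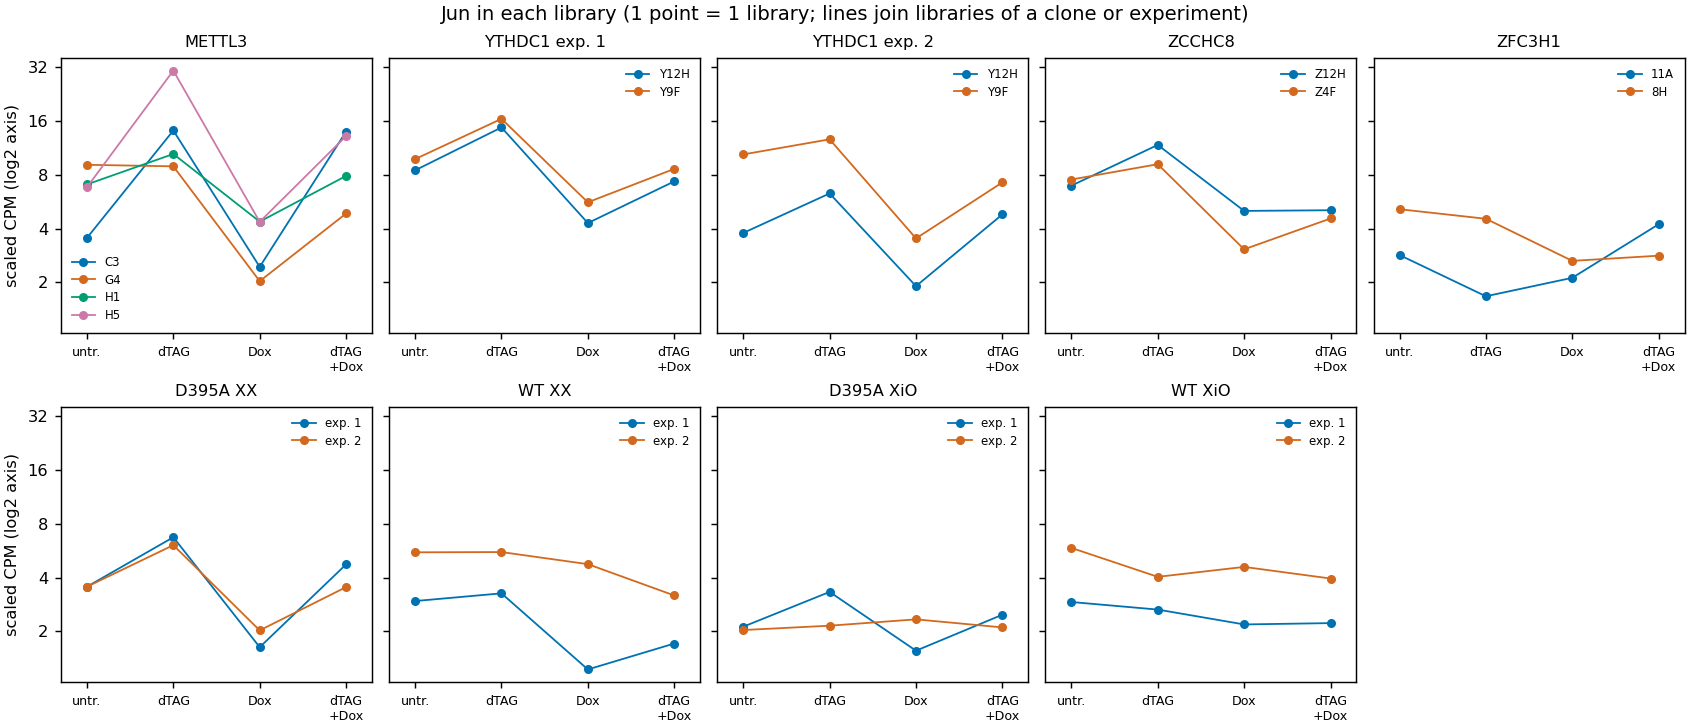
Jun in every library, as scaled CPM on a log axis over the 4 treatments, with a panel for each line and a line for each clone or experiment. The dTAG points lie above untreated in YTHDC1, ZCCHC8 and D395A_XX and in 3 of 4 METTL3 clones, and also in both experiments of WT_XX (2.96 and 3.27, 5.54 and 5.56) and of D395A_XiO (2.13 and 3.33, 2.04 and 2.15), where Jun was not called. Dox points lie below untreated in all panels except 1 experiment of D395A_XiO.

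Dox lowered members in the YTHDC1 and ZCCHC8 lines. In YTHDC1 experiment 1, 7 of 9 were called lower against 15.7% of all genes, with Atf3 at -1.02 ± 0.11 (adjusted p = 1.6e-06), Jun at -0.83 ± 0.09, Ier2 at -0.54 ± 0.13, Egr1 at -0.46 ± 0.10, Junb at -0.44 ± 0.10, Fos at -0.38 ± 0.13 and Myc at -0.36 ± 0.09. In experiment 2 the same 7 were called lower of 10, against 11.4% of all genes. There Junb (-0.87 ± 0.11) and Jun (-0.78 ± 0.10) led, and Atf3 was at -0.29 ± 0.09. Fosl1 and Dusp6 did not pass in either experiment. Without Y9F the calls in experiment 1 were Jun and Atf3 (2 members), and without the clone block those in experiment 2 were Junb and Ier2 (2 members). In the ZCCHC8 line 5 of 9 were called lower, against 20.1% of all genes, namely Atf3 (-1.18 ± 0.11), Jun (-0.85 ± 0.09), Egr1 (-0.84 ± 0.10), Myc (-0.57 ± 0.09) and Ier2 (-0.42 ± 0.13). The Egr1 value averages unlike pairs. Dox changed Egr1 by -0.21 and -0.13 in Z4F and Z12H without dTAG, and by -1.21 and -1.82 with dTAG. Ier2 changed by -0.50 and 0.06 without dTAG and by -0.34 and -0.89 with dTAG.

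Atf3 showed the change in every clone of these lines. Without dTAG it went from 17.5 to 9.01 in Y9F and from 16.2 to 6.82 in Y12H in experiment 1, and from 9.92 to 7.54 and from 3.74 to 3.27 in experiment 2. For ZCCHC8 it went from 14.2 to 6.42 in Z4F and from 17.9 to 8.95 in Z12H. With dTAG the Dox pairs were 22 and 10.4, 22.8 and 10.6, 11.9 and 7.92, 4.2 and 3.73, 11.9 and 4.87, and 28.6 and 8.5 in the same order. All 12 Dox pairs were lower, but the level in Y12H of experiment 2 was well under that of experiment 1.

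Other markers moved with Dox in the same lines. Summed endoderm and mesendoderm markers were higher with Dox in 4 of 4 pairs of each YTHDC1 experiment, 3 of 4 of ZCCHC8, 8 of 8 of METTL3 and 4 of 4 of ZFC3H1 and of each transgene line. Untreated and Dox sums ranged over 181 to 197 and 239 to 277 in YTHDC1 experiment 1, 187 to 204 and 281 to 296 in experiment 2, 201 to 253 and 290 to 326 in ZCCHC8, and 249 to 406 and 347 to 746 in METTL3. Lama1 and Dab2 were the markers called higher in YTHDC1 experiment 1 (0.56 and 0.29, 2 of 6 tested), experiment 2 (0.73 and 0.35, 2 of 5) and ZCCHC8 (0.22 and 0.37, 2 of 6, with Eomes lower at -0.40), and in METTL3 it was Lama1 alone (0.65, 1 of 7). Lama1 made up most of the sums, with a median of 203 against 250 for the sum over all libraries. The median change over the tested markers was -0.01, -0.07, -0.05 and 0.04 in the same order. Positive changes numbered 3 of 6, 2 of 5, 2 of 6 and 4 of 7. The stem cell marker Tdgf1 was called lower in all 4 (-0.51, -0.44, -0.48 and -0.40), and Nanog in ZCCHC8 (-0.39). Of 9 tested stem cell markers, 1 was called higher and 2 lower in each YTHDC1 experiment. In ZCCHC8 it was 1 higher and 4 lower, and in METTL3 0 higher and 1 lower. Summed stem cell markers were higher with Dox in 1 of 4 pairs of experiment 1 and 4 of 4 of experiment 2. For ZCCHC8 it was 0 of 4 and for METTL3 4 of 8. The part of these markers in the result was not tested.

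METTL3 clones gave similar values with a wider spread. Atf3 was lower with Dox in 8 of 8 pairs (-0.93 ± 0.25, adjusted p = 0.056) and so was Jun (-0.70 ± 0.23, adjusted p = 0.144). Egr1 was at -0.67 ± 0.18 (adjusted p = 0.0557) and lower in 7 of 8. By limma 0 of 8 members were called, 5 had an unadjusted p below 0.05, edgeR called Atf3 alone, and 3.19% of all genes were called. With the share of reads in short genes added to the fit, Egr1, Jun, Atf3 and Myc were called lower, and without clone C3 Egr1 was. The untreated and Dox values of Atf3 were 8.43 and 7.04 in C3, 23.1 and 4.76 in G4, 13.4 and 2.39 in H1 and 10.5 and 9.46 in H5, so G4 and H1 carried most of the difference. These are the clones with the N-terminal tag. With dTAG present, Dox changed Atf3 by -0.78 and -0.46 in G4 and H1 and by -1.15 and -0.54 in C3 and H5. The part of the tag end was not tested.

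In ZFC3H1, 0 of 9 members were called with Dox by limma, 1 had an unadjusted p below 0.05 (Myc, -0.54 ± 0.14, adjusted p = 0.0635) and edgeR called 0, against 4.36% of all genes. The transgene lines also had 0 calls by limma and by edgeR, against 0.681% of genes in WT_XX, 2.24% in D395A_XX, 2.51% in WT_XiO and 2.42% in D395A_XiO, with 2, 2, 0 and 1 members at an unadjusted p below 0.05. With the experiment as a replicate block, Fos (-0.57 ± 0.15), Jun (-0.58 ± 0.13), Junb (-0.51 ± 0.15) and Ier2 (-0.45 ± 0.10) were called lower and Dusp6 higher (0.42 ± 0.12) in WT_XX, against 10.1% of all genes called in either direction. In D395A_XX the block gave Jun lower (-0.61 ± 0.13) and Dusp6 higher (0.41 ± 0.12), against 13.8%. Dusp6 was called higher (0.26 ± 0.08) in WT_XiO, against 23.8%, and Ier2 lower (-0.66 ± 0.13) in D395A_XiO, against 22.1%. Jun was lower with Dox in 4 of 4 pairs of WT_XX, D395A_XX and WT_XiO and in 3 of 4 of D395A_XiO, and its values in those lines were -0.58 ± 0.29, -0.61 ± 0.29, -0.20 ± 0.25 and -0.12 ± 0.25.

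Of the other immediate early genes, Dox called 1 higher and 14 lower of 37 in YTHDC1 experiment 1, 3 higher and 6 lower of 36 in experiment 2, 2 higher and 11 lower of 37 in ZCCHC8 and 0 higher and 7 lower of 36 in METTL3. The shares lower were 37.8%, 16.7%, 29.7% and 19.4%, against 15.7%, 11.4% and 20.1% of all genes in the first 3 and 360 of 13336 genes in METTL3. Klf6 (-0.84 ± 0.08, -0.32 ± 0.07 and -0.96 ± 0.08) and Klf2 (-0.61 ± 0.07, -0.39 ± 0.08 and -0.39 ± 0.07), Krüppel-like transcription factors, were among the lowest adjusted p-values in both YTHDC1 experiments and ZCCHC8. In METTL3 the leading genes were the ERK phosphatases Dusp4 (-0.66 ± 0.12) and Dusp5 (-0.74 ± 0.13). The FGF, ERK and SRF list gave 6 higher and 6 lower in YTHDC1 experiment 1, 2 and 6 in experiment 2, 4 and 11 in ZCCHC8 and 0 and 2 in METTL3, with Spry4 at -0.75 ± 0.12 and Elk1 at -0.58 ± 0.10 in the last. The shares lower were 17.1%, 17.1%, 31.4% and 5.71%, beside those same shares of all genes. Rps6ka3, Elk1, Araf and Dusp9 of that list are X-linked by RefSeq, and Xist acts on their chromosome. They made up 4 of the 6, 4 of the 6, 4 of the 11 and 1 of the 2 called lower in these lines, with Dusp9 at -0.55, -0.72 and -0.32 in the YTHDC1 experiments and ZCCHC8. Etv4, an ETS factor, was called higher with Dox in both YTHDC1 experiments (0.67 and 0.54) and in ZCCHC8 (0.63).

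Members with and without introns were also counted apart, a grouping chosen after the values were seen. Over the METTL3, YTHDC1 (both experiments) and ZCCHC8 dTAG effects, Jun, Junb and Ier2 were called higher in 11 of 12 tested instances and the intron-containing members in 11 of 24, with median changes of 0.44 and 0.27, while 15.0% to 24.0% of all genes were called higher. For Dox in the same fits they were called lower in 8 of 12 and 11 of 24 instances, with medians of -0.57 and -0.37. The difference between these groups was not tested. Across the 80 libraries, with log2 values centred on the mean of each line, Junb and Ier2 were the most alike pair (Pearson r = 0.82), while Egr1 and Junb (-0.16), Atf3 and Junb (-0.25) and Egr1 and Dusp6 (-0.24) were below 0. Against the mean of the other 7 members that passed in all tables, Myc (0.77) and Jun (0.74) followed most closely and Dusp6 (0.21) least. Outside the list, the genes most like the mean of these 8 members, of 12662 compared, were Glul (0.78), Zfand2a (0.76), Fjx1 (0.72), E130012A19Rik (0.71) and Nodal (0.70). The libraries share lines, treatments and clones, so these correlations only describe how values ran together.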

How the data were processed

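ChrRNA-seq libraries were made with a stranded total RNA kit. Per the labels and methods, the authors discarded reads that Bowtie2 placed on rRNA, mapped the remainder to mm10 masked at Cast and 129S variants with STAR, kept unique alignments, counted reads by strand over whole transcript spans with featureCounts and deposited CPM computed with edgeR. Counting over spans includes introns, and CPM moves every gene when a few take a larger share of reads.

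CPM were divided by a median ratio over autosomal genes within each table. The values were whole multiples of 1 read for 100% of entries (tolerance 0.1 reads), so reads were recovered for the depths and for edgeR. The main test was limma (version 3.58.1, R 4.3.3) with lmFit and eBayes (trend) on log2(scaled CPM + 1) for genes averaging 1 scaled CPM or more, fitted per table, with Benjamini-Hochberg adjustment and a threshold of 0.05. Degron lines were blocked by clone and transgene lines were not blocked. Libraries of a clone deviated together, with mean residual correlations of 0.289 to 0.601 in METTL3, 0.375 and 0.734 in YTHDC1, 0.496 in ZCCHC8 and 0.865 in ZFC3H1, where the pairing comes from the clone names in the labels. In the transgene lines the libraries of an experiment deviated together too (0.57 in D395A_XX, 0.804 in D395A_XiO, 0.834 in WT_XX and 0.886 in WT_XiO), and by the reporting summary they came from a common batch of cells. Their test was set up without a block, so the values with the experiment as a replicate block are given beside the results.

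All 10 members are named in every comparison, and of each further list at most 4 genes with the lowest adjusted p among those called. Members and lists were chosen with earlier results of these data known. Alternatives were the CPM as deposited, scaling to genes of at most 10 kb, a pseudocount of 0.25, no filter on low values, edgeR (version 4.0.16) on the recovered reads, the block added or dropped, and each clone or experiment left out. Of 56 replicate pairs, none agreed within sampling noise (lowest chi-square per degree of freedom 7.6). A further 12 CPM columns, of untagged parental cells, were not used here. The duration of dTAG alone follows the sample titles, not the treatment field.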

Additional observations from a re-analysis of the deposited data

Results flagged for a closer look

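Ier3 in METTL3 clone C3 with dTAG plus Dox stood at 1.29 scaled CPM, apart from the other 3 clones at 0.615 to 0.664. It was the 1 outlying value among 40 groups of 4 clones looked at, and chance gives about 1 in 20 such groups.

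In the ZCCHC8 line the dTAG effect on Egr1 differed between cells with and without Dox, with an interaction of -1.34 (limma, adjusted p = 0.00319). Within clones the dTAG difference of Egr1 was 0.47 in Z4F and 0.92 in Z12H without Dox, and -0.54 and -0.76 with Dox.

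The dTAG effect was lower for ZCCHC8 than for YTHDC1 experiment 1 for Egr1, by -0.38 on the log2 scale, and for Dusp6, by -0.40 (limma, adjusted p = 0.0349 and 0.00877). For Egr1 the lower average came from the pairs with Dox. Without Dox the dTAG changes were 0.47 and 0.92 in the ZCCHC8 clones and 0.42 and 1.07 in the YTHDC1 clones.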

How the results depend on the processing

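Of 45 member changes called, 43 passed on the CPM as deposited, 44 with scaling to genes of at most 10 kb, 45 with a pseudocount of 0.25, 34 with no filter on low values and 44 by edgeR, and no called change reversed under any alternative run. With no replicate block 23 of 44 passed, and the count of called members went from 8 to 4 (dTAG, YTHDC1 experiment 1), 6 to 0 (dTAG, experiment 2), 7 to 2 (Dox, experiment 2), 1 to 0 (interaction, ZCCHC8) and 2 to 0 (ZCCHC8 minus YTHDC1). With the experiment, which marks a shared batch of cells, as a replicate block in the transgene lines, called members numbered 2 (dTAG, D395A_XX), 1 (dTAG, D395A_XiO), 5 (Dox, WT_XX), 2 (Dox, D395A_XX), 1 (Dox, WT_XiO), 1 (Dox, D395A_XiO) and 2 (D395A minus WT, XX). With no filter the counts were 5 (dTAG, YTHDC1 experiment 1), 0 (dTAG, D395A_XX), 0 (interaction, ZCCHC8) and 1 (ZCCHC8 minus YTHDC1). The CPM as deposited gave 2 (dTAG, D395A_XX) and 1 (ZCCHC8 minus YTHDC1), and scaling to short genes gave 0, 4 and, for Dox in METTL3, 1. By edgeR the counts were 1 for Dox in METTL3 and 1 for ZCCHC8 minus YTHDC1, and a term for the share of reads in short genes, an alternative added once the data had been seen, gave 4 for Dox in METTL3. The causes were not tested.

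Leaving out a clone or experiment gave 2 to 4 called members (dTAG, YTHDC1 experiment 1), 0 to 0 (dTAG, D395A_XX), 0 to 1 (Dox, METTL3; Egr1 without C3), 2 to 7 (Dox, YTHDC1 experiment 1; Jun and Atf3 without Y9F), 0 to 1 (interaction, ZCCHC8; 0 without Z12H), 0 to 3 (ZCCHC8 minus YTHDC1) and 0 to 1 (D395A minus WT, XX; Jun without WT experiment 1). In METTL3, Jun, Ier2 and Myc passed with each clone left out. YTHDC1 experiment 2 and ZFC3H1 had no residual degrees of freedom without a clone and gave no test. On the CPM as deposited, 55.0% of genes called with dTAG in ZCCHC8 were higher, against 40.3% after scaling, and the median gene in D395A_XiO shifted by 0.12. Few reads limit Ier3 and Fosl1.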
